A study of Mus musculus with 6 samples.

Results

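Semaphorins, plexins and neuropilins form one ligand and receptor system, and their genes were described here in mouse dental papilla cells (mDPCs) with and without a conditional deletion of *Setd2*. The members were all protein-coding genes of the deposited count table named *Sema3* to *Sema7*, *Plxna* to *Plxnd*, *Nrp1* or *Nrp2*. They number 31 of the 31613 genes of the table, with 20 semaphorins, 9 plexins and 2 neuropilins, and all 31 passed the filter on low counts that left 16519 genes for testing. Bulk RNA-seq was performed on 3 control libraries and 3 libraries of conditional knockout mice, *Dmp1*-Cre;*Setd2* fl/fl (*Setd2* cKO hereafter), of mDPCs, the tooth germ mesenchyme from which odontoblasts form, taken at postnatal day 6. Control mice were *Setd2* fl/fl without Cre per the study's methods and wild type per the sample labels, and both genotypes were on the C57BL/6J background. *Dmp1*-Cre is a transgene that is active in odontoblasts and other mineralizing cells, so *Setd2*, which encodes the methyltransferase of histone H3 lysine 36 trimethylation, is targeted in only part of the cells collected. Each library was a pool of RNA from 3 biological replicates, and pools may have shared mice, since the study lists fewer mice of each genotype for this collection than separate pools would need. The p-values cover the spread of these libraries alone, which may be technical.

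Semaphorins are secreted, membrane-bound or membrane-anchored signals that share a Sema domain, and they steer axons, blood vessels and migrating cells, mostly by repulsion. Plexins are their receptors and act inside the cell on small GTPases, while neuropilins are co-receptors that bind most class 3 semaphorins and pair with A-type plexins. In the tooth, the family is best known for SEMA3A, which restrains the timing and place of nerve ingrowth into the dental mesenchyme. SEMA3E differs from the other class 3 ligands in that it binds plexin D1 without a neuropilin.

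Levels are given as CPM, counts scaled to library size after TMM, and libraries are named by their replicate number in each group, 1, 2 or 3. Errors of a log2 fold change are standard errors (SE) of the fit. Lower and higher stand for the limits that the study set, which are an unadjusted p under 0.05, here by edgeR's quasi-likelihood test, with a log2 fold change of 0.58 or more in size. Calls after adjustment over all 16519 genes are given beside them. Library totals lay between 18557647 and 19210750 counts. *Setd2* itself was at 98.0, 96.5 and 92.0 CPM in control and 102, 98.5 and 96.0 CPM in *Setd2* cKO libraries (log2 fold change 0.05, SE 0.09, adjusted p = 0.900 by edgeR), and a count over the whole gene in all cells does not check the deletion. Replicate 3 stood apart in both groups, as described with the values it touches. In bulk RNA, fewer cells of a type and less RNA per cell cannot be told apart.

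Of the 31 members, 4 semaphorin genes were lower in *Setd2* cKO mDPCs at the study's limits, *Sema3e*, *Sema7a*, *Sema4d* and *Sema3d*, and no member was higher. This is 12.9% of the members, beside 2.71% of all genes called lower and 1.1% called higher. No member passed an adjusted p of 0.05 by edgeR, as 0 of all genes did (0%), while 8 members (25.8%) and 7.58% of all genes had an unadjusted p under 0.05. By DESeq2, the members lower at the study's limits were the same 4 genes, and 1 member, *Sema3e*, passed an adjusted p of 0.05, beside 0.854% of all genes. By limma voom with quality weights, 7 members were lower, beside 6.71% of all genes, and 10 passed an adjusted p of 0.05, beside 7.94%. The log2 fold change was negative for 21 and positive for 10 members, with a median of -0.10, against a median of 0.02 over all genes tested.

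Sequences upstream of the genes are shown for *Sema3e*, *Sema3d* and *Sema3c*, which lie in the same stretch of chromosome 5 with other genes between them and had different values. The window of *Sema7a*, the gene with the largest decrease, is shown too. *Sema3a*, which lies between *Sema3d* and *Sema3e*, is not shown. Each window of 300 bases runs from 250 bases before to 50 bases after the transcription start in RefSeq (GRCm38.p6, plus strand). Capitals mark the letters GGGCGG of a GC box or CCGCCC, the same on the other strand.
Sema3e, chr5:14025026-14025325 (+): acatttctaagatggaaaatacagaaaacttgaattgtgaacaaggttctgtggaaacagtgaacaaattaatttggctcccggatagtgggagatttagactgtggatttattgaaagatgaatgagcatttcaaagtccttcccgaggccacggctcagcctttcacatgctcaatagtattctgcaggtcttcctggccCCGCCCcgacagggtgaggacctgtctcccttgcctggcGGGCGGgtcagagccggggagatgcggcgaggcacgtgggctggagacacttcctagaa
Sema3d, chr5:12382916-12383215 (+): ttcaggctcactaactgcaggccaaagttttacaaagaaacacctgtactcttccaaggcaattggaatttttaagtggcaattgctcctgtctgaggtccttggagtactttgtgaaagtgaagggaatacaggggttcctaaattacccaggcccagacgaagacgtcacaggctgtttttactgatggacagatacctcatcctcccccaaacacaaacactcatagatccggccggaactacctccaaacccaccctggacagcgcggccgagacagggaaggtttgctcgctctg
Sema3c, chr5:17574566-17574865 (+): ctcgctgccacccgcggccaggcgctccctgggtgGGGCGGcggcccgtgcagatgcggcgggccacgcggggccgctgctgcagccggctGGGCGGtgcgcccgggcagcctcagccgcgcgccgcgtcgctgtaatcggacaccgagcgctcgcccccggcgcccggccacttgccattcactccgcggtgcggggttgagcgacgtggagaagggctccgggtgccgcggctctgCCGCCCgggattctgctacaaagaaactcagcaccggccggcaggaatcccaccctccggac
Sema7a, chr9:57939862-57940161 (+): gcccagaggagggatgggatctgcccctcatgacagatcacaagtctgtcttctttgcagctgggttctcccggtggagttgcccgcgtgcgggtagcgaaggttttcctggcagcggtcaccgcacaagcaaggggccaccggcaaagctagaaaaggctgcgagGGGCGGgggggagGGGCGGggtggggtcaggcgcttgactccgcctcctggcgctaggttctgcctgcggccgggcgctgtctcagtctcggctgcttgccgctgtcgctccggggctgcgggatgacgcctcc
The *Sema3e* window has a GC content of 50.7% with 11 CpG, the *Sema3d* window 49.7% with 8 CpG, the *Sema3c* window 75.7% with 42 CpG and the *Sema7a* window 67.3% with 23 CpG. GC-box letters stand in the windows of *Sema3e*, *Sema3c* and *Sema7a* and in 27 of 37 windows found for 26 members, beside 35.66% of all 32851 RefSeq windows of this length. The letters TATAAA, searched on both strands, are in 0 of the 37 member windows and in 13.62% of all windows, and TAATTA, a core that homeodomain factors bind, is in 0 of 37 and 5.291%. TGTGGT, a core of RUNX motifs, is in 5 of 37 member windows and in 16.76% of all. The *Sema3d* window holds none of the 4 motifs. The member windows had a median GC content of 63.7% and a median of 15 CpG, against 52.7% and 7 over all windows.

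**Figure D1:**
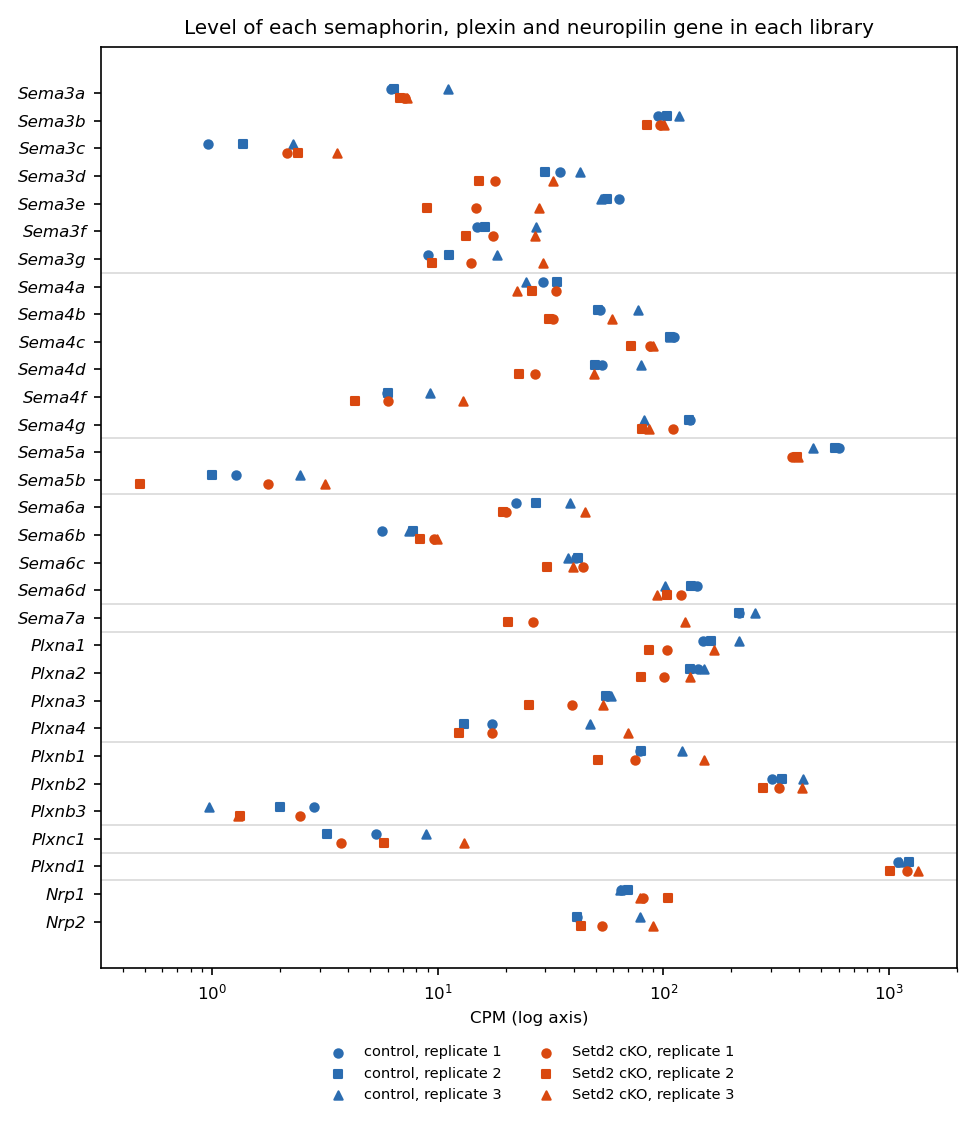
CPM (log axis) of each of the 31 genes in each of the 6 libraries, grouped by class, with control libraries in blue and Setd2 cKO libraries in orange. Plxnd1 lies highest, at 1011 to 1347 CPM in all libraries, and the Setd2 cKO libraries of Sema3e and Sema7a lie well below their controls.

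*Sema3e* (ENSMUSG00000063531) encodes the secreted ligand of plexin D1 and spans chromosome 5 from 14025276 to 14256689. It was at 63.7, 56.4 and 53.0 CPM in control replicates 1, 2 and 3 and at 14.8, 8.91 and 28.1 CPM in *Setd2* cKO replicates 1, 2 and 3. Every *Setd2* cKO library lay below every control library, and replicate 3 lay nearest to the controls. The group means were 57.7 ± 5.46 CPM (SD, n = 3) and 17.3 ± 9.84 CPM (SD, n = 3), a log2 fold change of -1.74 (SE 0.39). The unadjusted p was 0.00325 and the adjusted p 0.558 by edgeR, and the adjusted p was 0.00180 by DESeq2. It was the only member called lower in each of the 14 alternative fits, and its log2 fold change lay between -2.28 and -1.43 when any 1 library was left out.

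*Sema7a*, on chromosome 9 from 57940112 to 57962865, encodes the only class 7 semaphorin, which is held to the membrane by a glycolipid anchor and binds plexin C1 and beta 1 integrins. Its level was 216, 216 and 254 CPM in control replicates 1, 2 and 3 and 26.4, 20.4 and 124 CPM in *Setd2* cKO replicates. The groups did not overlap, but replicate 3 of the *Setd2* cKO group held 5.33 times the mean of the other two. The means were 229 ± 21.8 and 57.1 ± 58.5 CPM (SD, n = 3 each), so that the SD of the *Setd2* cKO group was as large as its mean. Its log2 fold change was -2.00 (SE 0.69, unadjusted p = 0.0240 and adjusted p = 0.626 by edgeR). In the fit with replicate as a block the value was -2.49 and the unadjusted p by edgeR was 0.0572, above the limit of 0.05. The call was also lost without *Setd2* cKO replicate 1 (-1.66), without control replicate 3 (-1.93) and with no filter on low counts (-2.00), and without *Setd2* cKO replicate 3 the value was -3.29 (adjusted p = 1.46e-04 by edgeR).

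*Sema4d*, on chromosome 13 from 51685529 to 51793747, encodes a transmembrane ligand of plexin B1 that is also shed. It was at 53.3, 49.9 and 79.7 CPM in control and 26.9, 22.9 and 49.4 CPM in *Setd2* cKO replicates 1, 2 and 3. The groups did not overlap, though *Setd2* cKO replicate 3 came within 1 CPM of control replicate 2. The log2 fold change was -0.88 (SE 0.33, unadjusted p = 0.0317 and adjusted p = 0.636 by edgeR). Within replicate numbers the difference was much tighter, with a log2 fold change of -0.93 (SE 0.11, adjusted p = 0.0167 by edgeR with the block). Of the exon bases of *Sema4d* in GENCODE on GRCm39, 13.7% are shared with *Secisbp2* on the opposite strand, whose log2 fold change was -0.23 (SE 0.11). The counts were made without regard to strand, and whether reads on shared bases were counted for either gene or left out was not tested. The same limit holds for *Sema4c* (16.8% shared), *Plxna2* (16.8%) and *Sema4g* (12.7%), and the shares of the other members were smaller. The call was lost without *Setd2* cKO replicate 1 (-0.75) or 2 (-0.68), without control replicate 3 (-0.65) and with no filter on low counts (-0.88).

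*Sema3d*, a secreted class 3 ligand gene on chromosome 5 from 12383385 to 12588948, was at 34.7, 29.8 and 42.5 CPM in control and 18.0, 15.3 and 32.4 CPM in *Setd2* cKO replicates. Here the groups overlapped, since *Setd2* cKO replicate 3 lay above control replicate 2. The log2 fold change was -0.71 (SE 0.30), and its unadjusted p by edgeR of 0.0498 was just inside the limit (adjusted p = 0.658). With the replicate block the value was -0.76 (SE 0.14, adjusted p = 0.0435 by edgeR). The call was lost when *Setd2* cKO replicate 1 (-0.58) or 2 (-0.50), or control replicate 1 (-0.73), 2 (-0.82) or 3 (-0.56), was left out.

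All 4 genes were lowest in *Setd2* cKO replicate 2, next in replicate 1 and highest in replicate 3. This order was not particular to them. Uncalled members such as *Plxnd1*, *Plxnb2*, *Plxna4* and *Nrp2* had it too, as did the summed dental epithelium markers, while *Nrp1* and *Sema5a* did not. As a percentage of the control mean, *Sema3e* was at 25.7, 15.4 and 48.8%, and *Sema7a* at 11.5, 8.91 and 54.4% in replicates 1, 2 and 3. *Sema4d* was at 44.1, 37.6 and 81.0% and *Sema3d* at 50.4, 42.8 and 90.8%. The odontoblast genes *Dspp*, *Dmp1* and *Nes* had the same order of libraries, while *Phex* was about equal in replicates 1 and 2. *Dspp*, the gene of the most abundant dentin matrix protein other than collagen, was at 3.08, 1.52 and 37.5% of its control mean. *Dmp1*, a gene of an acidic dentin matrix protein and the source of the Cre promoter, was at 28.7, 7.57 and 53.0%. *Phex*, an endopeptidase gene of phosphate homeostasis, was at 4.07, 4.15 and 27.3%. Of 5 odontoblast markers tested, 4 were lower at the study's limits and *Ifitm5* was not, none was at 0, and their summed level was 15715 to 16626 CPM in control and 651 to 6374 CPM in *Setd2* cKO libraries. The part of these cells in the semaphorin values was not tested.

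**Figure D2:**
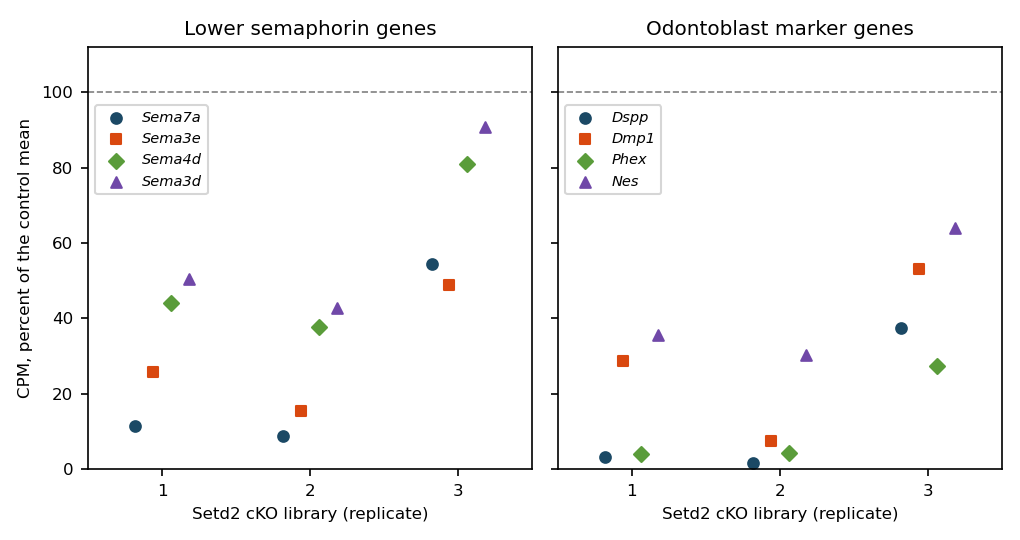
CPM of the 4 lower semaphorin genes (left) and of 4 odontoblast marker genes (right) in the 3 Setd2 cKO libraries, as a percentage of the mean of the 3 control libraries (dashed line, 100%). Ifitm5, the tested odontoblast marker that was not called lower, is not drawn. Replicate 3 is the highest library for all 8 genes, from 27.3% for Phex to 90.8% for Sema3d.

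The other class 3 genes were not called. *Sema3b*, the class 3 gene with the highest level, was at 95.1, 104 and 118 CPM in control and 96.3, 84.9 and 101 CPM in *Setd2* cKO libraries, with a log2 fold change of -0.17 (SE 0.12). *Sema3a*, the axon repellent named above, was low, at 6.21 to 11.1 CPM in control and 6.79 to 7.33 CPM in *Setd2* cKO libraries, with a log2 fold change of -0.16 (SE 0.26). *Sema3f*, a ligand that binds mainly neuropilin 2, had 15.0 to 27.2 and 13.4 to 26.9 CPM, and *Sema3g* had 9.02 to 18.3 and 9.38 to 29.4 CPM. *Sema3c*, which acts through both neuropilins and plexins A2 and D1, was the lowest per exon length and the only class 3 gene with a log2 fold change above 0.58, at 0.82 (SE 0.39, unadjusted p = 0.0702 by edgeR). Its level was 0.955, 1.37 and 2.27 CPM in control and 2.15, 2.39 and 3.58 CPM in *Setd2* cKO libraries, resting on 18 to 66 counts. Control replicate 3 lay above *Setd2* cKO replicate 1, so the groups overlapped, and with the replicate block the gene was called higher (log2 fold change 0.85, unadjusted p = 0.00766 and adjusted p = 0.155 by edgeR).

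Of the class 3 genes, 4 lie in a stretch of 5.35 Mb on chromosome 5, in the order *Sema3d*, *Sema3a*, *Sema3e* and *Sema3c*, with gaps of 536 kb, 423 kb and 3.32 Mb. The stretch holds 46 genes of the table, of which 8 were tested. The 4 tested genes that are not semaphorins had log2 fold changes of -0.17 for *Hgf*, 0.23 for *Cacna2d1*, 0.41 for *Pclo* and 0.48 for *Gm8991*, and none was called. *Gm8991* is a pseudogene near the floor, at 0.212 to 0.597 CPM over all libraries. *Pclo* was at 23.4, 23.8 and 27.2 CPM in control and 22.2, 15.6 and 61.0 CPM in *Setd2* cKO replicates 1, 2 and 3, so its value rests on replicate 3. *Sema3a*, which lies between the 2 lower genes, was not called either.

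**Figure D3:**
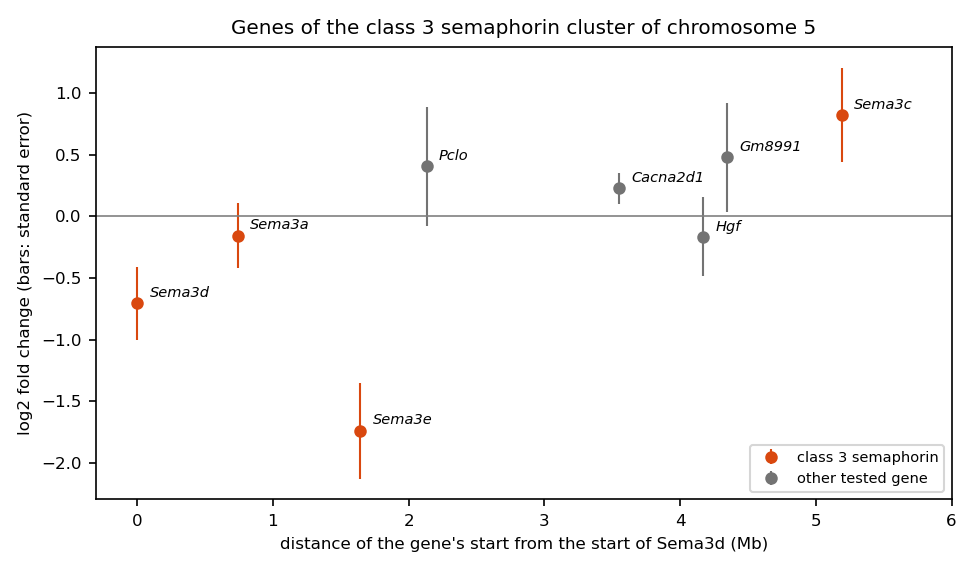
Log2 fold change (Setd2 cKO minus control, bars are the SE) of the 8 tested genes in the class 3 cluster of chromosome 5, against the distance of each gene's start from that of Sema3d in Mb. Sema3e at -1.74 and Sema3d at -0.71 stand below the other genes, which lie between -0.17 and 0.82.

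Class 4 semaphorins are transmembrane ligands, most of which signal through B-type plexins. Besides *Sema4d*, *Sema4c*, a ligand of plexin B2 and the class 4 gene with the highest level per exon length, was at 111, 107 and 107 CPM in control and 87.4, 72.2 and 90.1 CPM in *Setd2* cKO libraries. The groups did not overlap, but the log2 fold change of -0.38 (SE 0.12, unadjusted p = 0.0130 by edgeR) was smaller than the limit. *Sema4g* was at 131, 130 and 81.6 CPM in control and 110, 80.4 and 86.6 CPM in *Setd2* cKO libraries. *Sema4b* was at 51.2 to 77.0 CPM in control and 31.0 to 59.4 CPM in *Setd2* cKO libraries (log2 fold change -0.56, SE 0.29, unadjusted p = 0.103 by edgeR). With the replicate block, it passed them (log2 fold change -0.59, SE 0.11, adjusted p = 0.0435 by edgeR). *Sema4a* at 24.7 to 33.9 and 22.3 to 33.5 CPM and *Sema4f* at 5.94 to 9.24 and 4.29 to 13.0 CPM overlapped between the groups. Summed over the 6 genes, class 4 levels were 378 to 382 CPM in control and 237 to 321 CPM in *Setd2* cKO libraries.

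*Sema5a*, on chromosome 15 from 32244810 to 32696341, encodes a transmembrane ligand with thrombospondin repeats and had the highest CPM of all semaphorins. It was at 601, 577 and 462 CPM in control and 374, 392 and 396 CPM in *Setd2* cKO replicates 1, 2 and 3. The groups did not overlap, and the 3 *Setd2* cKO libraries were close together at 68.4, 71.7 and 72.4% of the control mean, replicate 3 included. Its log2 fold change of -0.50 (SE 0.13, unadjusted p = 0.00697 by edgeR) was within the limit of 0.58, and it was -0.51 without *Setd2* cKO replicate 3. *Sema5a* was called lower in 3 of the 14 alternative fits, at -0.61 in each. These were the fits without control replicate 3, with replicate 3 left out of both groups, and by voom. *Sema5b* was near the floor of the data, at 1.00 to 2.44 CPM in control and 0.477 to 3.15 CPM in *Setd2* cKO libraries.

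Class 6 semaphorins are transmembrane ligands of A-type plexins, and none was called. *Sema6d*, a ligand of plexin A1 with the highest level in the class, was at 141, 133 and 101 CPM in control and 120, 104 and 94.0 CPM in *Setd2* cKO libraries (log2 fold change -0.24, SE 0.16). *Sema6b* was at 5.62, 7.79 and 7.43 CPM in control and 9.57, 8.32 and 9.88 CPM in *Setd2* cKO libraries. All 3 *Setd2* cKO libraries lay above the controls for this gene, with a log2 fold change of 0.41 (SE 0.19, unadjusted p = 0.0702 by edgeR). *Sema6a* at 22.1 to 38.7 and 19.5 to 44.8 CPM and *Sema6c* at 37.6 to 41.7 and 30.5 to 44.2 CPM overlapped. Over all 20 semaphorins, the summed level was 1555 to 1636 CPM in control and 953 to 1261 CPM in *Setd2* cKO libraries. Most of this difference lay in *Sema7a* (group means 229 and 57.1 CPM) and *Sema5a* (547 and 387 CPM). Of the 20 log2 fold changes 15 were negative, beside 7831 of the 16519 genes tested.

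The receptors held no call. *Plxnd1*, the plexin that SEMA3E binds, lies on chromosome 6 from 115954811 to 115995005 and had the highest level of all members, 145 CPM per kb of exon in control. It was at 1099, 1231 and 1121 CPM in control and 1205, 1011 and 1347 CPM in *Setd2* cKO libraries, with fully overlapping groups and a log2 fold change of 0.05 (SE 0.15, adjusted p = 0.948 by edgeR). Per exon length, the next members in control were *Sema7a* at 68.8, *Plxnb2* at 42.9, *Sema5a* at 26.7 and *Sema3b* at 21.4 CPM per kb. *Sema3e* was in place 14, at 4.81 CPM per kb in control and 1.44 CPM per kb in *Setd2* cKO libraries.

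A-type plexins are the signaling receptors for class 3 semaphorins bound to neuropilins and for class 6 semaphorins. *Plxna1* was at 149, 163 and 216 CPM in control and 103, 86.5 and 168 CPM in *Setd2* cKO libraries, where replicate 3 lay among the controls (log2 fold change -0.56, SE 0.27, unadjusted p = 0.0757 by edgeR). For *Plxna2*, at 142, 132 and 151 CPM against 101, 79.8 and 132 CPM, and for *Plxna3*, at 55.4 to 58.5 against 25.2 to 53.8 CPM, the groups did not overlap. Their log2 fold changes of -0.45 (SE 0.19) and -0.52 (SE 0.25) were within the limit. For *Plxna2*, *Setd2* cKO replicate 3 came within 1 CPM of the lowest control. With the replicate block, *Plxna1* at -0.60 (SE 0.13, unadjusted p = 8.60e-04 by edgeR) and *Plxna3* at -0.58 (SE 0.19, unadjusted p = 0.0183 by edgeR) passed the study's limits. *Plxna4* was highest in replicate 3 of both groups, at 17.3, 13.0 and 47.5 CPM in control and 17.5, 12.4 and 69.6 CPM in *Setd2* cKO libraries.

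The B-type plexins, receptors of class 4 semaphorins, and plexin C1 overlapped between the groups. *Plxnb2* was at 305, 334 and 415 CPM in control and 325, 277 and 414 CPM in *Setd2* cKO libraries (log2 fold change -0.05, SE 0.19). *Plxnb1*, the receptor of SEMA4D, was at 78.9 to 121 and 51.1 to 152 CPM (log2 fold change -0.01, SE 0.40), and *Plxnb3* was at 0.964 to 2.81 and 1.30 to 2.44 CPM. *Plxnc1*, the plexin that SEMA7A binds, was low, at 5.30, 3.21 and 8.90 CPM in control and 3.73, 5.78 and 13.0 CPM in *Setd2* cKO libraries (log2 fold change 0.37, SE 0.54). The receptors of the ligands SEMA3E, SEMA4D and SEMA7A had no call beside the calls of their ligand genes, and no test of a ligand against its receptor was run. Summed over the 9 plexins, levels were 1855 to 2139 CPM in control and 1550 to 2351 CPM in *Setd2* cKO libraries.

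Both neuropilin genes had positive log2 fold changes. *Nrp1*, a co-receptor for SEMA3A and for vascular endothelial growth factor, was at 64.9, 69.5 and 64.0 CPM in control and 81.3, 105 and 78.8 CPM in *Setd2* cKO replicates 1, 2 and 3. All 3 *Setd2* cKO libraries lay above the controls, with a log2 fold change of 0.42 (SE 0.13, unadjusted p = 0.0174 and adjusted p = 0.626 by edgeR) that was within the limit of 0.58. *Nrp2*, which binds SEMA3F, was at 41.4, 41.3 and 78.9 CPM in control and 53.5, 43.0 and 90.4 CPM in *Setd2* cKO libraries. Replicate 3 was high in both groups, and the log2 fold change was 0.21 (SE 0.36).

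**Figure D4:**
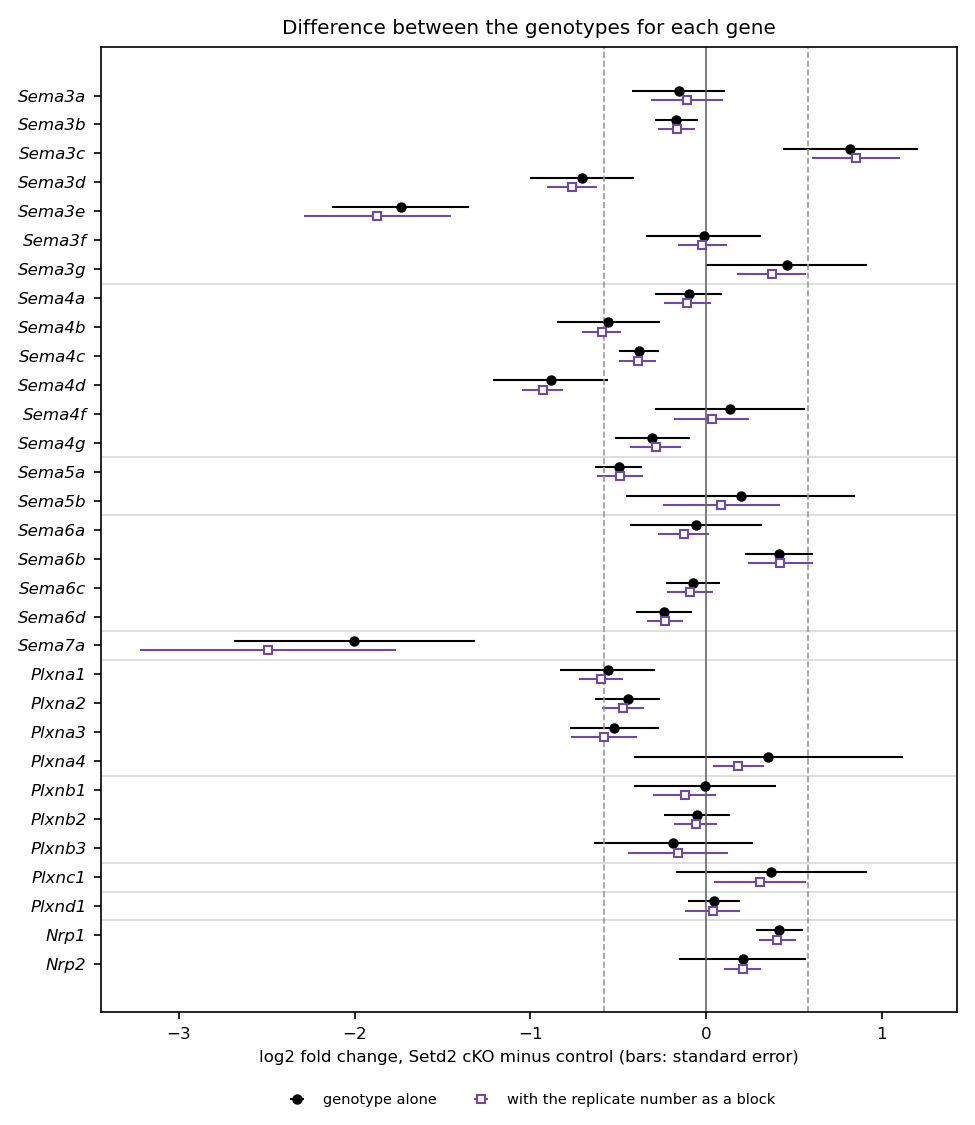
Log2 fold change (Setd2 cKO minus control) of the 31 genes with its SE, from the comparison of genotypes alone (filled circles) and with replicate as a block (open squares). Dashed lines mark 0.58 in either direction, and Sema7a at -2.00 and Sema3e at -1.74 lie farthest below 0, at -2.49 and -1.87 with the block.

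Over all members, 7 (22.6%) had every *Setd2* cKO library below every control library, beside 7.98% of all genes tested. They were *Sema3e*, *Sema4c*, *Sema4d*, *Sema5a*, *Sema7a*, *Plxna2* and *Plxna3*. *Nrp1* and *Sema6b*, 6.45% of the members, had every *Setd2* cKO library above, beside 7.26% of all genes. With replicate 3 left out of both groups, 14 members (45.2%) lay below and 5 (16.1%) above without overlap, beside 29.8 and 30.2% of all genes.

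Replicate 3 differed from replicates 1 and 2 in both groups for many members. In both groups, 21 of 31 members were higher in replicate 3 than the mean of replicates 1 and 2, as were 6195 of the 16519 genes tested, and 11 members exceeded it by more than 0.58 on the log2 scale in both groups, as did 1059 of all genes. *Plxna4* showed the largest shift in control, at 3.13 times the other two in control and 4.66 times in *Setd2* cKO libraries. Only 5 members were lower in replicate 3 of both groups, among them *Nrp1* and *Plxnb3*. *Sema3e* was at 0.882 times the other two in control and 2.37 times in *Setd2* cKO libraries, and *Sema7a* at 1.18 and 5.33 times.

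**Figure D5:**
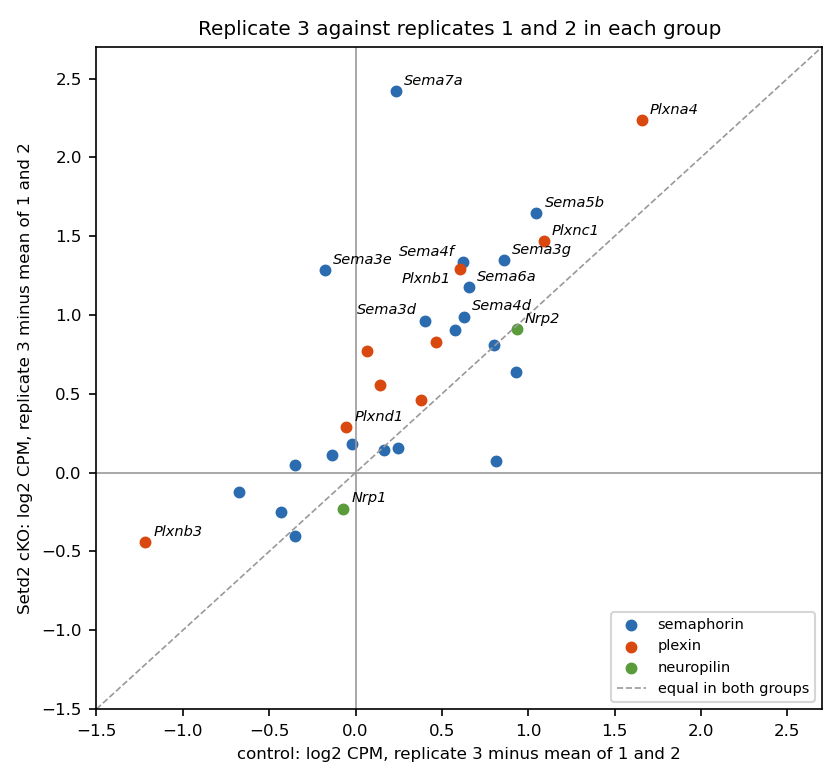
Replicate 3 minus the mean of replicates 1 and 2 in log2 CPM for each of the 31 genes, in control (horizontal axis) and in Setd2 cKO libraries (vertical axis). Most points lie above 0 on both axes, 21 of 31 in the upper right, and Sema7a and Sema3e lie far above the dashed line of equal shift.

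The marker genes of other cells differed between the libraries as well. The 7 dental epithelium markers, such as *Krt14* and *Ambn*, summed to 7273, 2646 and 30215 CPM in control replicates 1, 2 and 3 and to 7123, 2206 and 49944 CPM in *Setd2* cKO replicates, so that replicate 3 was the highest in both groups. The 8 endothelium markers summed to 307, 340 and 500 CPM in control and 314, 342 and 790 CPM in *Setd2* cKO replicates. The 6 macrophage markers summed to 588 to 805 CPM in control and 442 to 1090 CPM in *Setd2* cKO libraries, and the 5 neutrophil markers to 3.46 to 20.4 and 4.67 to 133.5 CPM, lowest in replicate 3 of each group. None of the epithelium, endothelium or macrophage markers was called, 2 of 5 neutrophil markers, *Ngp* and *Camp*, were higher, and none of these markers was at 0 in every library. Mural markers (5 genes, 541 to 575 and 582 to 685 CPM), Schwann and glia markers (6 genes, 23.8 to 26.4 and 17.9 to 32.6 CPM) and dental mesenchyme markers (10 genes, 1210 to 1364 and 1294 to 1456 CPM) held 1 call, the mesenchyme gene *Lhx8*, which was lower. The 5 neuron markers in the table summed to 48.5 to 102 and 33.7 to 80.1 CPM, with 3 of them at 10 counts or fewer in every library, and the 4 lymphocyte markers to at most 1.64 CPM. *Lhx8*, *Ngp* and *Camp* were named after their values were seen. The part of these cells in the members' values was not tested.

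Without *Setd2* cKO replicate 3, 8 members were lower, beside 6.88% of all genes, and 5 of them, *Sema3d*, *Sema3e*, *Sema4d*, *Sema7a* and *Plxna1*, had an adjusted p under 0.05 by edgeR, beside 3.33%. With replicate 3 left out of both groups, 9 members were lower, beside 7.55%, and 1, *Sema3c*, was higher, beside 4.49%, and the 9 lower members also passed an adjusted p of 0.05, beside 6.81%. With replicate as a block, which assumes a pairing that the study does not state, 6 members were lower, beside 4.37% of all genes. In that fit 1 member was higher, beside 2.05%, and *Sema3d*, *Sema4b* and *Sema4d* passed an adjusted p of 0.05, beside 0.975%. *Sema3e* was among the lower members in each of these fits, with log2 fold changes of -2.28, -2.32 and -1.87. *Sema7a* was lower in both fits without replicate 3 and not with the block.

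Partners of the pathway were read from 3 lists of co-receptors, intracellular mediators and the PI3K-AKT core. Of 67 genes 66 were tested, of which 1 (1.52%) was lower, beside 2.71% of all genes, and 2 (3.03%) were higher, beside 1.1%. By edgeR, 0 partners and 0 of all genes passed an adjusted p of 0.05, and 7 partners (10.6%) had an unadjusted p under 0.05, beside 7.58% of all genes. The median log2 fold change was 0.06. *Crmp1*, a mediator gene of SEMA3A signaling at the cytoskeleton, was lower, at 8.17, 10.8 and 12.8 CPM in control and 2.20, 1.43 and 6.08 CPM in *Setd2* cKO libraries (log2 fold change -1.71, SE 0.52). The groups did not overlap, and replicate 3 was again the highest *Setd2* cKO library. *Rras2*, a small GTPase gene of the R-Ras group, was higher, at 10.7, 11.4 and 10.3 CPM in control and 14.8, 27.5 and 12.5 CPM in *Setd2* cKO libraries (log2 fold change 0.76, SE 0.30). *Met*, whose product is a receptor kinase that associates with B-type plexins, was higher, at 6.84, 6.05 and 4.54 CPM against 7.22, 11.3 and 8.04 CPM (log2 fold change 0.61, SE 0.25). The unadjusted p by edgeR was 0.0140 for *Crmp1*, 0.0392 for *Rras2* and 0.0475 for *Met*.

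Among the 38 intracellular mediators, *Crmp1* was the lower and *Rras2* the higher gene, and 16 log2 fold changes were negative. *Farp2*, an exchange factor gene that acts downstream of plexin A1, was named after its values were seen, at 36.8, 38.5 and 44.6 CPM in control and 27.5, 26.4 and 26.7 CPM in *Setd2* cKO libraries. Its log2 fold change of -0.57 (SE 0.11, unadjusted p = 0.00152 by edgeR) was just within the limit of 0.58, and its 3 *Setd2* cKO libraries were close together. The 12 tested co-receptors and other receptors had a median log2 fold change of 0.15, with *Met* as the only call. Of the 16 genes of the PI3K-AKT core, the kinase cascade that the study examined together with SEMA3E, none was called and the median log2 fold change was -0.02. The smallest unadjusted p-values by edgeR were 0.0401 for *Inpp4b*, a phosphoinositide phosphatase gene (log2 fold change -0.49, SE 0.19), and 0.0908 for *Tsc1*, a repressor of mTOR (log2 fold change -0.23, SE 0.12). Counts of RNA do not measure the phosphorylation by which this cascade acts. The study found less phosphorylated AKT1 in the odontoblast layer, in cultured *Setd2*-deficient cells and after knockdown of *Sema3e* or *Col11a2*. The study also reported KEGG enrichment of the PI3K/AKT pathway among its downregulated genes, a gene set that was not tested here.

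In the deposited table, all 31 members carry the Gene Ontology terms axon guidance and semaphorin-plexin signaling, 22 carry neural crest cell migration and 7 carry angiogenesis. The members lie on 17 chromosomes, with 4 each on chromosomes 5, 6 and 9. On chromosome 9, *Sema3b* and *Sema3f* lie 72.3 kb apart, *Plxnb1* follows 1.38 Mb on, and *Setd2* lies 1.41 Mb beyond *Plxnb1*. None of these 3 neighbours of *Setd2* was called, with log2 fold changes of -0.17, -0.01 and -0.01.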

How the data were processed

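The submitters' notes name Bowtie2, HISAT2, HTSeq, DESeq2 and GRCm39. Per the study's methods, HISAT2 aligned the reads and HTSeq counted them for each gene, ignoring strand. The authors deposited 1 table of whole-number counts, not normalized, which also holds their own DESeq2 comparison (mean normalized signal, a ratio of the groups, log2 of that ratio, p-values), not used here. Positions in the table were of GRCm38: their starts or ends equal those of RefSeq GRCm38.p6 for 47.4% of shared genes and those of a GRCm39 annotation for 1.25%. Levels per kb use union exon lengths of GENCODE on GRCm39, matched by gene ID.

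Genes were kept by filterByExpr at a minimum count of 10. The genotypes were compared by the robust quasi-likelihood F test of edgeR 4.0.16 (R 4.3.3) after TMM, and p-values were adjusted by Benjamini and Hochberg's method. Standard errors are the log2 fold change divided by the root of F. The fits were tried on simulated counts drawn for each library on its own, with no shift of replicate 3 and no pairs. That trial therefore does not check the fits under the differences between replicates seen here. Alternatives were DESeq2 1.42.0, limma 3.58.1 voom with quality weights, other library sizes and filters, the replicate number as a block and libraries left out. With 1 library left out, 2 libraries stand for that group.

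The members, gene lists and tests were chosen with earlier results of these data known. Full values were given for called members, *Plxnd1*, both neuropilins and the highest gene of each class, and for called partners or else the 2 with the smallest p in a list. Other members shown library by library were chosen after their values were seen. Libraries of the same number deviated together from their group means (correlation across genes 0.453, 0.465 and 0.663 for replicates 1, 2 and 3), and the numbers, taken from the labels, were read as pairs. Control replicates 1 and 2 also correlated with *Setd2* cKO replicates 2 and 1, at 0.380 and 0.455, so only replicate 3 is set apart as a pair. Deviations within a group cancel out, so with replicate 3 apart in both groups, replicates 1 and 2 are bound to deviate together. Their correlations therefore cannot show whether the numbers 1 and 2 are pairs. No 2 libraries of a group agreed within sampling noise.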

Additional observations from a re-analysis of the deposited data

How the results depend on the processing

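At this depth, counting error is small for all but the lowest members, *Sema3c*, *Sema5b* and *Plxnb3*. Other library sizes moved the median of all genes by at most 0.009 on the log2 scale in size and changed no call of a member. Of 433 alternative values of the members, 366 kept direction and call, 21 gained the call, 13 lost it and 33 over 15 members changed sign, none of them of a called member.

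Members lower at the study's limits numbered 2 with no filter on low counts (beside 1.89% of all genes), 7 by voom (6.71%), 9 with replicate 3 left out of both groups (7.55%), 6 with the replicate number as a block (4.37%), and 1 to 8 with 1 library left out (1.66 to 6.88%). The lowest count was without *Setd2* cKO replicate 1 (2.24%) and the highest without replicate 3 (6.88%). Members higher numbered 1, *Sema3c*, with no filter (1.07%), by voom (2.77%), with the replicate block (2.05%) and with replicate 3 left out of both groups (4.49%), and 0 to 1 with 1 library left out (0.490 to 4.01%). Members at an adjusted p under 0.05 numbered 1 by DESeq2 (0.854%), 10 by voom (7.94%), 3 with the replicate block (0.975%), 9 with replicate 3 left out of both groups (6.81%) and 0 to 5 with 1 library left out (0 to 3.33%). Members whose groups do not overlap numbered 19 with replicate 3 left out of both groups, 61.3% of the members beside 59.9% of all genes, and 9 to 14 with 1 library left out, beside 18.5 to 43.7%. Called partners numbered 1 to 6 with 1 library left out, 1 without *Setd2* cKO replicate 2 (beside 1.66% of all genes lower and 0.490% higher) and 6 without replicate 3 (6.88 and 4.01%). Fewer libraries or other filters and weights enter these fits, and the cause of the differences was not tested. Beyond the calls given in the report, the block changed none.

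With 1 library left out, the log2 fold change crossed 0 for *Nrp2* (-0.16 to 0.59), *Plxna4* (-0.79 to 1.12), *Plxnb1* (-0.56 to 0.29), *Plxnb2* (-0.22 to 0.082), *Plxnb3* (-0.55 to 0.19), *Plxnc1* (-0.29 to 0.81), *Plxnd1* (-0.056 to 0.15), *Sema3a* (-0.30 to 0.17), *Sema3f* (-0.33 to 0.30), *Sema3g* (-0.13 to 0.80), *Sema4a* (-0.27 to 0.026), *Sema4f* (-0.45 to 0.43), *Sema5b* (-0.46 to 0.65), *Sema6a* (-0.57 to 0.19) and *Sema6c* (-0.19 to 0.062). With replicate 3 left out of both groups, values of opposite sign were -0.010 for *Plxna4*, -0.065 for *Plxnd1*, 0.15 for *Sema3a* and -0.20 for *Sema4f*. By voom they were 0.036 for *Plxnb3*, 0.13 for *Sema3a*, 0.11 for *Sema3f*, -0.0024 for *Sema4f* and 0.028 for *Sema6c*.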
